A study of Oryctolagus cuniculus with 54 samples.

Results

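The genes described here are the 100 transcripts of the rabbit lung whose mean level stood out most on the day of term birth (T31) against the neighboring ages sequenced together with it. They were chosen on measured values, from the 18 libraries of sequencing run 1. For each gene the count was divided by the library total, scaled to a common total (CPM) and averaged per group as log2(CPM + 1). A T31 mean of at least 2.6 was required, which equals 5.06 CPM, and genes were then ranked by T31 minus the highest of the F25, F27, F28, F29 and T35 means. Of 29587 genes in the table, 9034 reached the T31 minimum, 1663 of these had a T31 mean above every other group mean of the run, and the first 100 were taken as the birth-day genes. The deposited table names genes by Ensembl identifier only and 0 of the identifiers could be paired with a gene symbol, so the genes are described by their rank and by counts, and 4 identifiers are printed.

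The series profiled lung RNA of 45 New Zealand White rabbits in 54 libraries, and the animal was the replicate. Fetal pups (F) were taken by C-section on gestational days 20, 23, 25, 27, 28 and 29 and their lungs were harvested at once, from dams sedated with medetomidine, ketamine and xylazine and euthanized with pentothal sodium. Term pups were born naturally on day 31 and sampled immediately (T31), or were kept with their mothers in room air and sampled after 4 days (T35), 6 days (T37) or 11 days (T42). Preterm pups (P) were delivered by C-section on day 28, breathed 21% oxygen in incubators, were fed a milk replacer, and were sampled after 1 h (P0), 3 days (P3) or 7 days (P7). All pups were euthanized with pentothal sodium, and each lung of a time point came from a different dam. The RNA was from the right lung, or from whole lungs at F20 and F23, and without gene symbols the lung label could not be checked against marker genes. Natural birth, the absence of anesthesia of the dam, air breathing and gestational age came together at T31 and cannot be told apart in these groups.

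At birth the lung changes from a fluid-filled, secreting organ to an air-breathing one. Fluid is absorbed across the epithelium, surfactant is released, pulmonary blood flow rises, and the newborn passes through a surge of catecholamines and glucocorticoids. Transcripts that respond to such signals are commonly switched on and off within hours. In whole lung tissue, a change in the number of cells of a type and a change of RNA per cell cannot be told apart.

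Library totals were between 5771693 and 8073755 counts, no 2 libraries held the same values, and the correlation between libraries reached 0.987 at most. Run 1 held 3 animals each of F25, F27, F28, F29, T31 and T35. Run 2 held P0 (3 animals), P3 (3), P7 (2), F28 (2) and T35 (2), and run 3 held F20 (4), F23 (4), F25 (1), F28 (2), T31 (3), T35 (2), T37 (4), T42 (3) and P7 (1). The 3 T31 animals of run 3 were not among those that chose the genes, nor were F20, F23, T37, T42 and the preterm pups. The F25, F28 and T35 libraries of runs 2 and 3 came from 6 animals of run 1 that were sequenced again, so comparisons with them are not independent of the choice.

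In the libraries that chose them, the birth-day genes exceeded the next highest group by 0.48 to 2.28 on the log2(CPM + 1) scale, with a median of 0.64, and 16 of them by more than 1. The ratio of T31 to the next group was 1.41 to 4.86 after back-transformation, with a median of 1.63. The T31 level was 5.06 to 2469 CPM with a median of 38.0 CPM. There were 20 genes below 10 CPM and 19 above 100 CPM, so the list covers scarce and abundant transcripts alike. The next highest group was F29 for 36 genes, T35 for 34, F25 for 14, F27 for 8 and F28 for 8. The genes at ranks 98, 99 and 100 exceeded the next group by 0.4832, 0.4818 and 0.4815, and the next 3 genes, just outside the list, by 0.4786, 0.4786 and 0.4763, so the end of the list is not a step in the data. These values chose the genes and were given no test.

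The median level of the 100 genes in run 1 averaged 3.76 at F25, 3.90 at F27, 4.00 at F28, 4.22 at F29, 5.24 at T31 and 4.16 at T35 on the log2(CPM + 1) scale. The 3 newborns differed from each other. Their medians were 5.81 in animal 1, 5.19 in animal 10 and 4.73 in animal 15, all above the highest other library of the run, which was an F29 library at 4.42. Animal 1 held the highest of the 3 T31 values for 71 genes, animal 10 for 18 and animal 15 for 11. Animal 1 exceeded all 15 other libraries of the run in 86 of the genes, animal 10 in 69 and animal 15 in 26. For all genes that passed the filter these shares were 11.5%, 7.33% and 5.6%. All 3 newborns exceeded every other library in 11 genes (0.288% of all genes), exactly 2 of them did so in 65, 1 in 18 and none in 6. The mean peak at T31 was thus carried by all animals in a small part of the list. Between the 3 T31 animals the median SD of the birth-day genes was 0.627 on the log2 scale, against 0.25 for all genes above the T31 minimum, and in the other groups of 3 or 4 animals the median SD of the birth-day genes was 0.235 to 0.349.

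**Figure D1:**
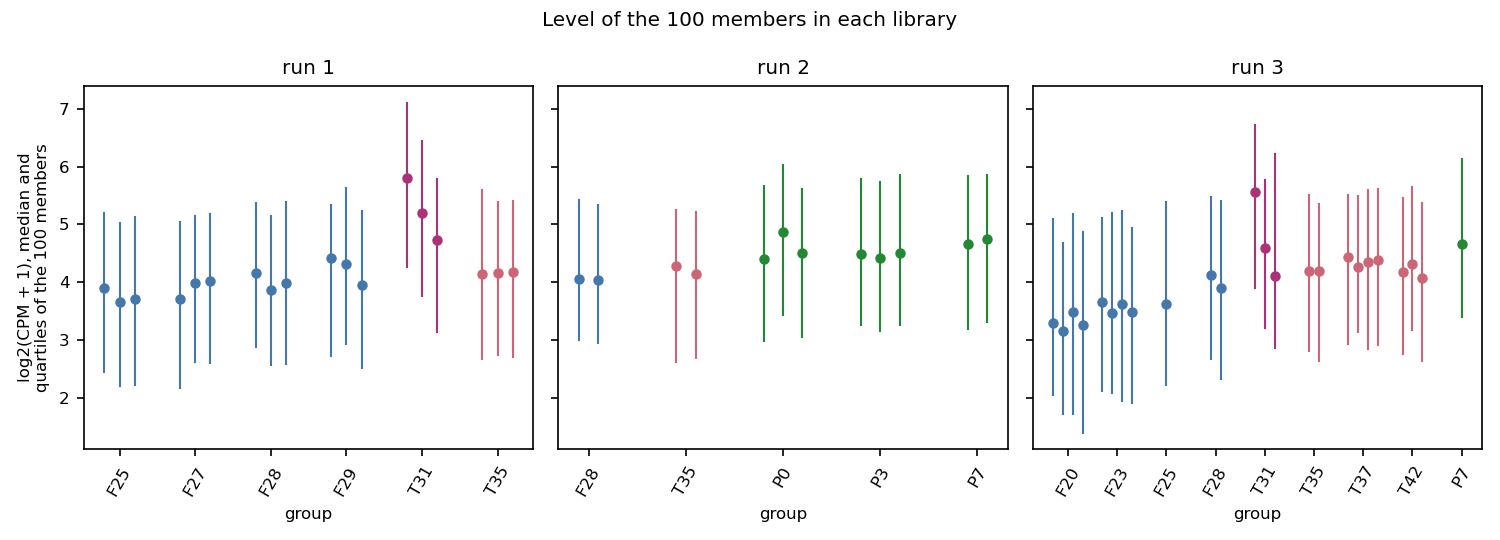
Level of the 100 birth-day genes in each library, as the median (point) and quartiles (line) of log2(CPM + 1), with one panel per sequencing run and libraries ordered by group. In run 1 the 3 T31 libraries sit at 5.81, 5.19 and 4.73, while in run 3 one T31 library stands at 5.55 and the other 2 at 4.58 and 4.11, within or near the range of the later ages.

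The newborns of run 3 showed the peak unevenly. Their medians over the birth-day genes were 5.55 in animal 4, 4.58 in animal 11 and 4.11 in animal 18. The 4 T37 libraries of the same run were at 4.25 to 4.43 and the 3 T42 libraries at 4.08 to 4.31, so animals 4 and 11 were above all T37 libraries and animal 18 was below them. The 4 F20 libraries, at 3.15 to 3.48, and the 4 F23 libraries, at 3.46 to 3.65, were below all 3 newborns. Animal 4 exceeded every F20, F23, T37 and T42 library in 73 of the 100 genes, animal 11 in 22 and animal 18 in 30. The corresponding shares of all genes were 10%, 7.14% and 9.89%. All 3 newborns did so in 10 genes (1.39% of all genes), exactly 2 of them in 27, 1 in 41 and none in 22. This leaves out the F25, F28, T35 and P7 libraries of run 3, so it is not the measure used for run 1. Against every other library of run 3, all 3 newborns were higher in 1 of the 100 genes (0.486% of all genes). Animal 4 held the highest T31 value of the run for 73 genes, animal 18 for 15 and animal 11 for 12. The median SD between these 3 animals was 0.769 for the birth-day genes and 0.327 for all genes above the T31 minimum.

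The excess of T31 over the later ages was tested in run 3 with edgeR's quasi-likelihood test, and a gene was called at a fold change above 2 and a Benjamini-Hochberg adjusted p of at most 0.05. Against T37, 23 of the 100 genes were called higher in T31 and 0 lower, beside 1.8% of all tested genes called higher and 3.85% called lower. Without the threshold on size and adjustment, 49 genes were higher and 2 lower at an unadjusted p under 0.05, beside 13.5% and 14.3% of all tested genes. DESeq2 and limma-voom also called 0 of them lower here, against F23 and in the P0 against F28 test described later, while limma-voom called 1 lower against T42. All 3 newborns were above every T37 library in 15 genes (4.88% of all genes). The fitted log2 fold change had a median of 0.68 and quartiles of 0.22 and 1.26, against a median of -0.01 over all tested genes, and it was above 0 for 85 of the 100 and for 49.1% of all genes. As a plain difference of group means of log2(CPM + 1), the median was 0.40 for the birth-day genes and -0.12 for all genes. This measure differs from the fitted fold change in the scaling, the added 1 and the averaging. By it, 73 of the 100 genes were above 0 and 19 above 1, beside 36.6% and 1.09% of all genes. Without T31 animal 4 the median fell from 0.68 to 0.32 and the count from 23 to 16, without T31 animal 11 the count was 35, and a fit of only the T31 and T37 libraries gave 7.

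Against T42, 25 genes were called higher in T31 (1.48% of all genes) and 0 lower (3.82%), with a median log2 fold change of 0.72. At an unadjusted p under 0.05, 47 were higher and 2 lower, beside 12.9% and 14.3% of all genes. Without T31 animal 4 the median fell to 0.32 and the count of 25 to 12. The count was 16 without T42 animal 33 and 11 without T42 animal 50, and 3 when only the T31 and T42 libraries were fitted. Against F23, the closest earlier age that took no part in the choice, 67 were called higher (12.1% of all genes) and 0 lower (10.1%), with a median of 1.64. At an unadjusted p under 0.05, 78 were higher and 0 lower, beside 24.6% and 22.7% of all genes. These 3 comparisons share the same newborns. There were 17 genes called higher in all 3 of them (0.601% of all genes), 30 called higher against T37 or T42 (2.43%), and 30 in none of the 3 (86.7%).

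The repeated F28 and T35 animals in run 3 give the peak itself, as a description, since they took part in the choice through run 1. The T31 mean exceeded the F28 mean for 86 of the 100 genes, with a median difference of 0.66, and exceeded the T35 mean for 83, with a median difference of 0.62. Over all genes the T31 mean was higher for 44.9% and 50.3%. The difference was above 1 for 29 and 25 of the 100, beside 2.085% and 2.436% of all genes. In run 1 the medians of the same differences were 0.97 against F28 and 0.86 against T35, and every difference was above 0 by construction. In 17 genes all 3 newborns of run 3 were above every F28 and T35 library of that run (6.87% of all genes).

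**Figure D2:**
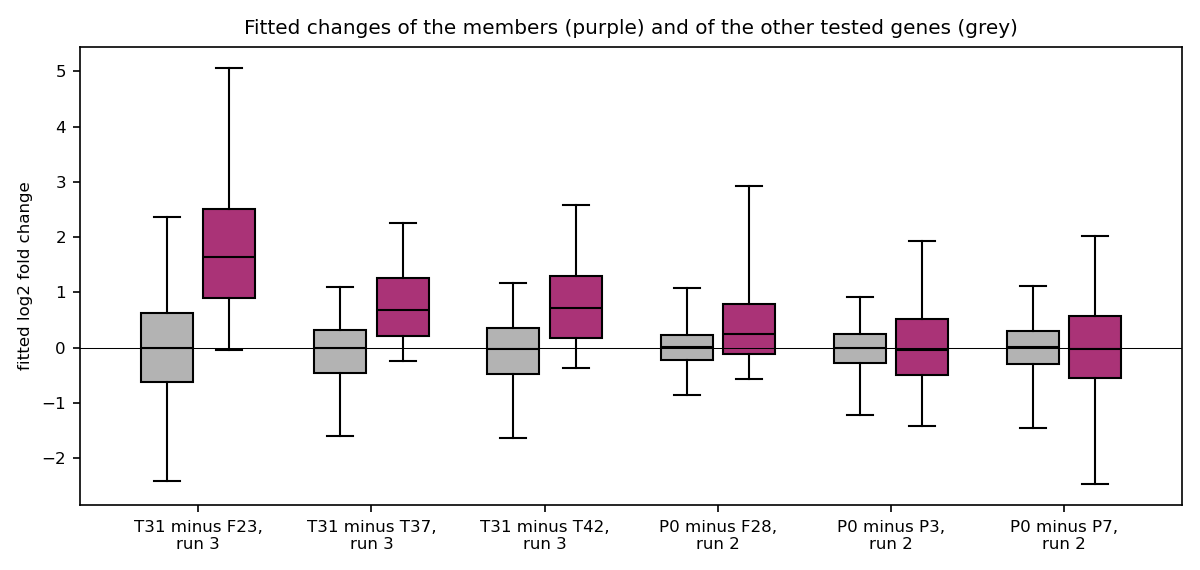
Fitted log2 fold changes of the 100 birth-day genes (purple) and of the other tested genes (grey) in 6 comparisons, with boxes at the quartiles, a line at the median and whiskers from the 5th to the 95th percentile. The medians of the birth-day genes are 1.64, 0.68 and 0.72 for T31 against F23, T37 and T42, then 0.24, -0.04 and -0.02 for P0 against F28, P3 and P7, where the boxes lie on both sides of 0.

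A larger excess in run 1 did not go with more calls in run 3. Of the 16 genes with the largest excess (above 1), 4 were called higher in T31 than T37, and their median log2 fold change was 0.71. Of the 44 genes with an excess of 0.6 to 1, 12 were called and the median was 0.80. Of the 40 genes below that, 7 were called and the median was 0.49. By level of the transcript, 4 of 20 genes below 10 CPM, 15 of 61 between 10 and 100 CPM and 4 of 19 above 100 CPM were called. The genes were also described by the group that came next to T31 in run 1, without a test. Of the 36 genes next highest at F29, 16 were called against T37 and the median was 1.11. Of the 34 genes next highest at T35, 3 were called and the median was 0.45.

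The gene ranked 1 took 1 of 2 levels in each animal. It was at 1193 CPM or more in 22 animals and at 66.8 CPM or less in the other 23, with no value in between. All 6 T31 animals of both runs were in the high group, beside 16 of the 39 other animals, including 3 of 4 at F23 and 3 of 4 at T37, 0 of 3 at T35 and 0 of 3 at P3. Of the 6 animals sequenced more than once, 0 changed from one level to the other between runs. This gene was called in none of the 6 comparisons. The gene ranked 6 was at 265 CPM in T31 animal 10 and at 268 CPM in T37 animal 27, while the other 52 libraries were at 3.93 to 14.4 CPM. It was thus high in a single newborn of run 1.

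Pups delivered preterm were used to ask whether the genes were also high 1 h after C-section on day 28. The F28 pups were taken by C-section on the same day and harvested at once, so P0 against F28 does not isolate delivery. The T31 pups were born naturally and sampled immediately, not after 1 h. The P0 pups, sampled 1 h after C-section on day 28, had medians over the birth-day genes of 4.41 in animal 1, 4.50 in animal 4 and 4.87 in animal 3. The 2 F28 libraries of the same run were at 4.04 and 4.05, so each P0 pup was above both of them. The P3 libraries were at 4.43 to 4.51 and the P7 libraries at 4.66 and 4.75, so the P0 pups overlapped with the later preterm ages. The T35 libraries of run 2 were at 4.14 and 4.28. The median level of the birth-day genes was therefore higher in P0 than at F28. It did not form a peak at P0, as P3 and P7 stood as high. Gene by gene, the P0 mean was above the F28 mean for 64 of the 100 and below it for 36. Over all genes it was above for 42.8%. The median difference was 0.16 on the log2(CPM + 1) scale, against -0.05 for all genes, with F28 animals that took part in the choice.

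By gene, 8 of the 100 were called higher in P0 than F28 (0.181% of all genes) and 0 lower (0.0363%), by edgeR's quasi-likelihood test. The median log2 fold change was 0.24, and 31 genes were higher and 2 lower at an unadjusted p under 0.05, beside 5.95% and 5.26% of all genes. The 2 F28 animals of this test also took part in the choice, through their run 1 libraries, so the test is not fully independent of it. The count was 2 without F28 animal 2, 1 without F28 animal 9 and 4 without P0 animal 3, while DESeq2 gave 16, limma-voom 4 and no filter on low counts 19. In 30 genes all 3 P0 pups were above both F28 libraries, beside 10.1% of all genes. In 13 genes all 3 were below both, beside 17.9% of all genes.

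Against P3, where no animal took part in the choice, 7 genes were called higher in P0 (0.689% of all genes) and 6 lower (1.83%), with a median log2 fold change of -0.04. At an unadjusted p under 0.05, 20 were higher and 22 lower, beside 9.81% and 10.2% of all genes. Against P7, 11 were called higher (1.17%) and 7 lower (3.09%), with a median of -0.02. At an unadjusted p under 0.05, 26 were higher and 23 lower, beside 10.3% and 10.8% of all genes. The count of 11 fell to 7 without P0 animal 1, 7 without P0 animal 3, 5 without P7 animal 3 and 6 without P7 animal 4. In 13 genes all 3 P0 pups were above every F28 and P3 library (2.65% of all genes). P0 animal 4 was above them in 23 genes, animal 1 in 22 and animal 3 in 36, beside 14.9%, 11.6% and 17.9% of all genes. In 58 genes none of the 3 pups was, and the share of all genes for that count was not computed.

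All 8 genes called higher in P0 than F28 were also among the 23 called higher in T31 than T37, which is 100% of the shorter list and 34.8% of the longer. The 7 genes called higher in P0 than P3 were all among the 23 as well (100% and 30.4%), as were 9 of the 11 called higher in P0 than P7 (81.8% and 39.1%). Over all tested genes, 10 of the 25 called higher in P0 than F28 were among the 266 called higher in T31 than T37 (40% and 3.76%), as were 30 of the 95 called higher in P0 than P3 (31.6% and 11.3%) and 40 of the 162 called higher in P0 than P7 (24.7% and 15%). These counts include the birth-day genes. Without them the overlaps were 2 of 17 for F28 (11.8%), 23 of 88 for P3 (26.1%) and 31 of 151 for P7 (20.5%). The 8 birth-day genes called higher in P0 than F28 all had F29 as their next highest group in run 1. For 7 of these 8, F29 animal 7 was the highest library of that run other than T31. Of the 34 genes next highest at T35, 0 were called higher in P0 than F28, and 5 were called lower in P0 than P3. The next highest group was set by run 1 means that include the F28 animals of the P0 test, so this split is a description.

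**Figure D3:**
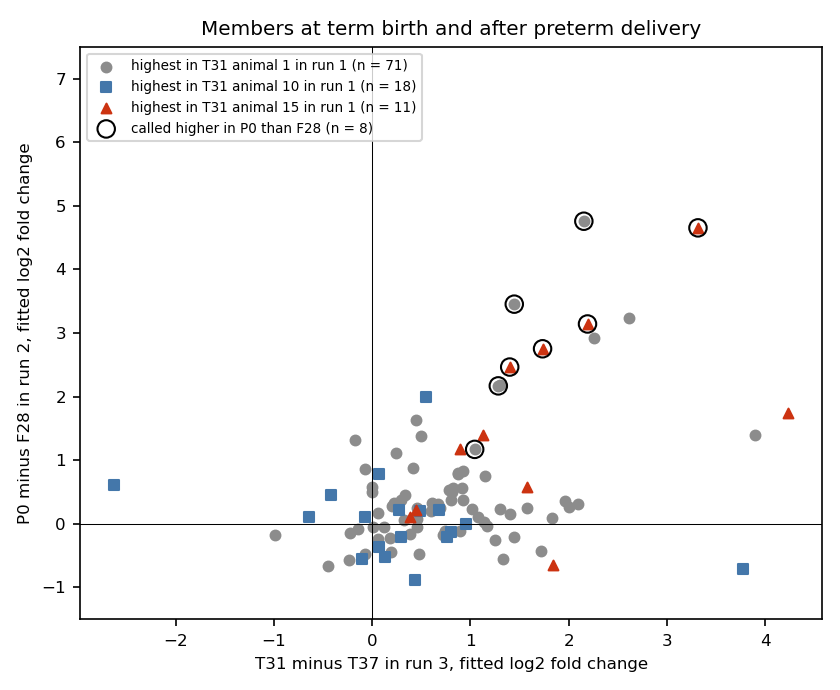
Fitted log2 fold change of each birth-day gene for T31 against T37 in run 3 (horizontal) and for P0 against F28 in run 2 (vertical), with the symbol giving the run 1 newborn in which the gene was highest and circles around the 8 genes called higher in P0. The circled genes all lie to the right of 0, and 4 of the 8 were highest in T31 animal 15, which held the highest value for 11 of the 100 genes.

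The genes were then split by the newborn of run 1 in which they were highest, as a description. Of the 71 genes highest in T31 animal 1 in run 1, 61 were highest in animal 4 among the newborns of run 3, against 73 of all 100. Relative to the T37 mean, the median of these 71 genes was 1.11 in animal 4, 0.13 in animal 11 and -0.18 in animal 18 on the log2(CPM + 1) scale. Of the 11 genes highest in T31 animal 15 in run 1, 7 were highest in animal 18 in run 3, against 15 of all 100. Their median relative to T37 was 0.86 in animal 4, 0.03 in animal 11 and 2.17 in animal 18. The newborn that was lowest over the whole list was thus the highest for this small group. The 11 genes had a median fitted log2 fold change of 1.57 for T31 against T37, with 7 called, and 1.39 for P0 against F28, with 4 called. For the 71 genes the medians were 0.72, with 15 called, and 0.26, with 4 called. For the 18 genes highest in animal 10 they were 0.28, with 1 called, and 0.05, with 0 called.

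One fetal animal, singled out after its values were seen, was high for part of these genes. F29 animal 7 was the highest of the 15 libraries of run 1 other than T31 for 25 of the 100 birth-day genes, but for 8 of the 11 genes highest in T31 animal 15. In these 11 genes it exceeded the mean of the other 2 F29 animals by a median of 1.29 on the log2(CPM + 1) scale, against 0.07 in the 71 genes highest in T31 animal 1. Among the 8 genes called higher in P0 than F28 it was the highest of these libraries for 7, by a median of 1.84 over the other F29 animals. It was more than 1 log2 unit above the other F29 animals for 6 of the 11 genes and for 5 of the 8. These are run 1 values, which took part in the choice, and are given as a description. The share of all genes for which this animal was highest was not computed.

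**Figure D4:**
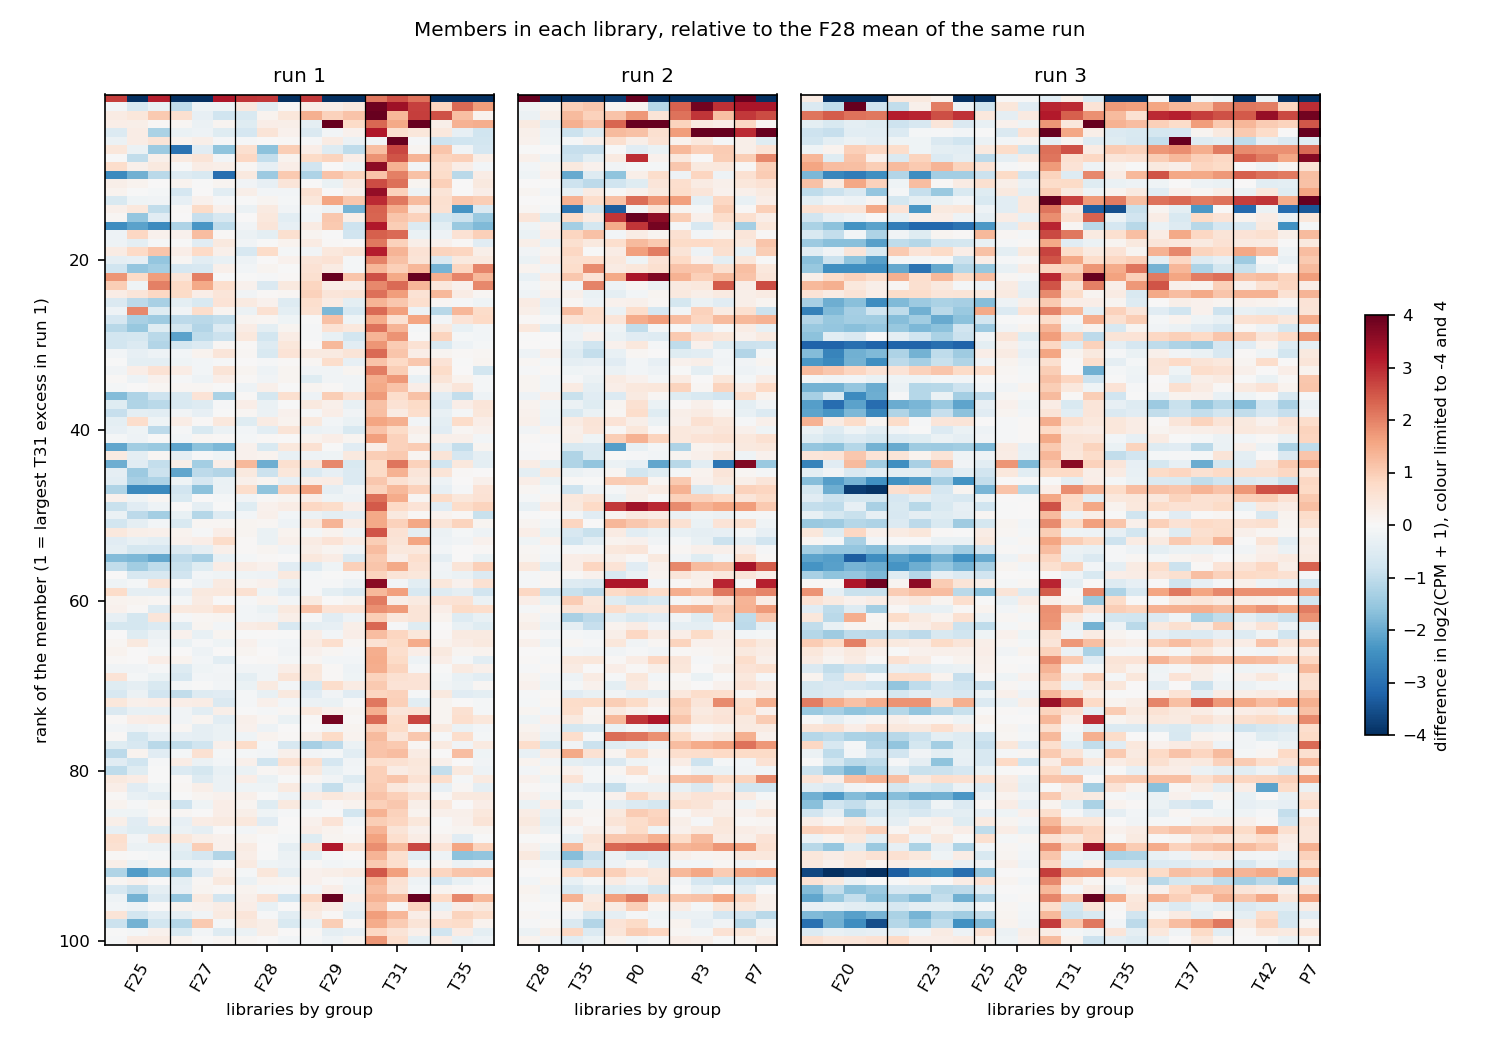
Difference of each birth-day gene (rows, by rank) in each library (columns, by group and run) from the F28 mean of the same run, in log2(CPM + 1) and with colors limited to -4 and 4. The T31 columns differ from animal to animal in both runs. Rows 4, 22 and 74 are red in the P0 pups, F29 animal 7 and T31 animals 15 and 18, but not only there. Every newborn of both runs is above the F28 mean in these 3 rows. The differences are 2.284, 2.581 and 2.253 in T31 animal 1, and 2.321, 1.525 and 1.3 in P0 animal 1.

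There were 6 genes called higher in all 6 comparisons, at ranks 4, 15, 22, 49, 74 and 76, of 7 among the 13644 genes tested in both runs (0.0513%). Their fitted log2 fold changes were 1.28 to 3.31 for T31 against T37 and 2.17 to 4.76 for P0 against F28. The median level of these 6 genes was 5.27, 6.35 and 6.63 in the 3 P0 pups and 3.11 and 3.43 in the F28 libraries of the run, on the log2(CPM + 1) scale. It was 4.13 to 4.70 at P3 and 4.02 to 4.23 at P7, so the P0 pups did not overlap with the later preterm ages. At term it was 5.31, 3.99 and 5.98 in the newborns of run 1, and 4.98, 3.49 and 6.49 in those of run 3, where the T37 libraries were at 3.18 to 3.98. In each run a newborn (animal 10 and animal 11) was thus near the other ages even for these genes. The 3 P0 pups were more alike than the newborns. The 6 genes were chosen by these calls, so the levels are a description.

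ENSOCUG00000023019, ranked 4, was among these 6. It was at 9.34 CPM in T31 animal 1, 5.01 CPM in animal 10 and 154 CPM in animal 15 in run 1, and F29 animal 7 was at 81.5 CPM while the other 14 libraries of the run were at 4.84 CPM or less. In run 3 the newborns were at 7.60, 2.39 and 108 CPM, and the T37 libraries at 3.23 to 7.20 CPM, so the groups overlapped and one newborn stood far above. The P0 pups were at 14, 63.9 and 75.2 CPM, above the F28 libraries at 1.36 and 2.84 CPM and the P3 libraries at 2.6 to 4.63 CPM. The log2 fold change was 4.65 (SE 0.68, edgeR adjusted p = 0.022) for P0 against F28, 3.95 (SE 0.54, edgeR adjusted p = 0.00151) for P0 against P3, and 3.31 (SE 0.77, edgeR adjusted p = 0.00615) for T31 against T37.

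ENSOCUG00000000737, ranked 15, was the gene with the largest called rise from F28 to P0. It was at 20.8, 8.34 and 7.22 CPM in the newborns of run 1 and at 6.11, 1.97 and 9.04 CPM in those of run 3, where the T37 libraries were at 0.28 to 2.30 CPM. The P0 pups were at 10.4, 17.7 and 23.8 CPM. The F28 libraries of run 2 were at 0.14 and 1.20 CPM, which are counts of 1 and 8, so the fold is imprecise, and the same animals were at 2.27 and 3.35 CPM in run 1. The P0 pups were above every other library of run 2. The log2 fold change was 4.76 (SE 0.63, edgeR adjusted p = 0.0112) for P0 against F28, 3.55 (SE 0.47, edgeR adjusted p = 0.00123) for P0 against P3, and 2.15 (SE 0.57, edgeR adjusted p = 0.0147) for T31 against T37. This gene and the previous one were picked for printing after their values were seen, as the largest rises, and the next 2 as the largest falls.

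**Figure D5:**
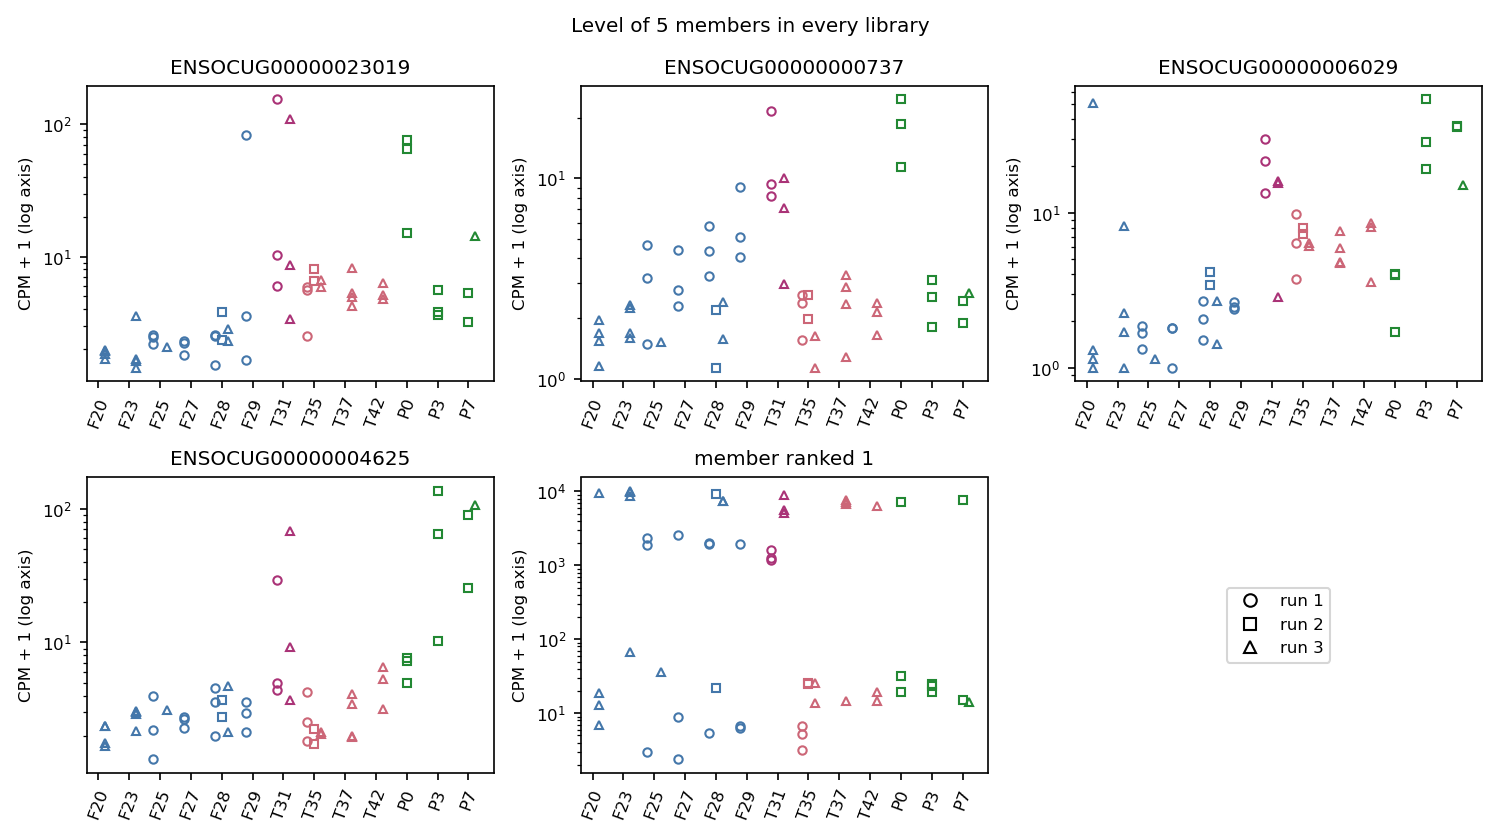
Level of 5 birth-day genes in every library as CPM + 1 on a log axis, by group, with the symbol giving the run. The first 2 genes rise in all 3 P0 pups. The next 2 are lower in the P0 pups (at most 3.03 and 6.61 CPM) than in every P3 and P7 pup. The gene ranked 1 takes either a high or a low level in each animal.

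Other birth-day genes were lower in P0 than in the older preterm pups. There were 9 called lower in P0 than P3 or P7 (3.36% of all genes), of which 6 were called against P3, 7 against P7 and 4 against both (1.56% of all genes). They were grouped by these calls, so their levels are a description. The median level of these 9 genes was 2.33 to 2.93 in the P0 pups and 2.04 and 3.08 in the F28 libraries, so P0 and F28 overlapped. It was 3.83 to 4.11 at P3 and 4.33 and 4.67 at P7. At term it was 3.75 to 4.90 in the newborns of run 1, but 2.16 to 4.01 in those of run 3, where the T37 libraries were at 2.98 to 3.35. The next highest group in run 1 was T35 for 8 of the 9 and F28 for the gene ranked 5. Of these genes 1 was called higher in T31 than T37. None of the 9 was called in P0 against F28.

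ENSOCUG00000006029, ranked 2, was at 28.8, 20.5 and 12.4 CPM in the newborns of run 1, above all other libraries of that run. In run 3 the newborns were at 15.1, 14.5 and 1.86 CPM, and the T37 libraries at 3.74 to 6.57 CPM, so one newborn fell below the older pups. The log2 fold change for T31 against T37 was 1.25 (SE 1.25, edgeR adjusted p = 0.568). The P0 pups were at 0.69, 2.97 and 3.03 CPM, the P3 pups at 18, 27.6 and 52.7 CPM and the P7 pups of that run at 34.6 and 35.2 CPM, without overlap. P0 was lower than P3 by a log2 fold change of -3.84 (SE 0.46, edgeR adjusted p = 0.000761) and lower than P7 by -3.90 (SE 0.49, edgeR adjusted p = 0.000428).

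ENSOCUG00000004625, ranked 5, was high in 1 newborn per run. It was at 28.2, 3.94 and 3.38 CPM in run 1, and at 67.1, 8.30 and 2.73 CPM in run 3, where the T37 libraries were at 0.96 to 3.14 CPM. It was called higher in T31 than T37, with a log2 fold change of 3.89 (SE 0.71, edgeR adjusted p = 0.00107), although the lowest newborn overlapped with T37. The P0 pups were at 4.01, 6.20 and 6.61 CPM, above the F28 libraries of run 2 at 1.76 and 2.69 CPM. That difference was not called, with a log2 fold change of 1.395 (SE 1.10, edgeR adjusted p = 0.707). The P3 pups were at 9.27, 63.3 and 135 CPM. The difference between P0 and P3 was -3.60 on the log2 scale (SE 0.79, edgeR adjusted p = 0.0209). At P7 it was at 24.4 and 89.5 CPM in run 2 and at 107 CPM in the pup of run 3, and the higher 2 of these were above every term library.

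Levels in the later preterm pups were also compared with F28 and T35. In run 2 the P7 mean exceeded the F28 mean for 76 of the 100 genes (48.9% of all genes), with a median difference of 0.34 on the log2(CPM + 1) scale against -0.01 for all genes. It exceeded the T35 mean, the same age after conception, for 78 genes (64.5% of all genes), with a median of 0.26 against 0.11 for all genes. For P3 the difference from F28 was 0.31 in the median, with 76 genes above 0 (47.1% of all genes). In run 3 the P7 pup was at a median of 4.66, above the T31 newborns at 4.11 and 4.58 and below the one at 5.55. It was also above all T35, T37 and T42 libraries. The T31 mean of that run was above this pup for 48 of the 100 genes and below it for 52, with a median difference of -0.03. Over all genes T31 was higher for 45.6%, with a median of -0.04. This rests on a single P7 pup and was not tested. These differences with F28 and T35 involve animals that took part in the choice and were not tested.

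A group of 26 birth-day genes was called in none of the 6 comparisons, as were 72.2% of all genes tested in both runs. They were picked by the absence of calls, so their levels are a description. Their median level in run 1 was 4.52 to 5.61 in the newborns, 3.65 to 4.56 at F29 and 3.54 to 4.10 at T35. In run 3 the newborns were at 3.84 to 4.94 and the T37 libraries at 4.19 to 4.35, so the newborns lay on both sides of the older pups. In run 2 the P0 pups were at 4.08 to 4.30, the F28 libraries at 4.15 and 4.17 and the P3 libraries at 4.17 to 4.51. The sequencing run moved with some of these levels. Of the animals sequenced again, 19 to 26 of the 100 genes differed by more than 1 log2 unit from run 1. The share of all genes for this count was not computed. The median over the 100 genes moved by -0.12 to 0.20, and the median over all genes by -0.171 to -0.119. The part of the run in any single gene was not tested.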

How the data were processed

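Libraries were QuantSeq FWD libraries, read near the 3′ end of each transcript. After adapter trimming in BBduk, the authors used STAR for alignment to OryCun2.0 and HTSeq-count for counts per Ensembl gene, adding reads of unannotated 3′ UTRs with a custom script. Versions are not given in the sources used here. The deposited counts were whole numbers without normalization, and no molecular identifiers are described, so reads are not independent molecules.

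Counts were fitted per run with edgeR 4.0.16 (R 4.3.3): TMM, a minimum of 0.5 CPM in 3 or more fitted libraries, quasi-likelihood test, Benjamini-Hochberg adjustment over 14817 genes in run 3 and 13791 in run 2. All 100 birth-day genes passed this filter in both runs, also without the T31 or P0 libraries. Run 3 used 24 libraries and run 2 used 12, each 1 per animal, with the group as factor. The study's own calls used limma-voom, which is an alternative here (limma 3.58.1), as is DESeq2 1.42.0. The procedure was tested on simulated data. Replicates were separate animals, and 0 columns were unmapped.

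The genes and the lists were chosen with earlier results of these data known. Genes were to be named by symbol, by excess in run 1 and by size of the called changes. As 0 identifiers matched a symbol, the lists of genes, cell markers and promoter motifs could not be applied, no sequence is shown, and the 4 printed identifiers were chosen after their values were seen.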

Additional observations from a re-analysis of the deposited data

Results flagged for a closer look

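Of 15 combinations of a gene or median level and a group of 4 libraries that were checked for a sample far from the others, 2 stood out, and chance flags about 1 in 20. ENSOCUG00000006029 was at 49.98 CPM in F20 animal 35, while the other 3 F20 animals were at 0.31 CPM or less, and the gap was 0.994 of the range of the group. ENSOCUG00000023019 was at 2.54 CPM in F23 animal 23, in a group whose lowest animal was at 0.44 CPM, and the gap was 0.881 of the range. F20 animal 35 was higher for the first gene than all 6 T31 animals, so a high level of this transcript was not particular to newborns.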

How the results depend on the processing

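Fitting only the 2 groups compared lowered the genes called higher to 7 (T31 against T37), 3 (T31 against T42) and 6 (P0 against P7). For P0 against F28 the count of 8 became 16 with DESeq2, 4 with limma-voom and 19 with no filter on low counts. Leaving out 1 animal at a time gave 16 to 35 genes against T37, 11 to 33 against T42 and 53 to 71 against F23. It gave 1 to 9 for P0 against F28, 5 to 7 against P3 and 5 to 10 against P7. Of the 100 birth-day genes, 60 were chosen again with group medians in place of means, 88 with a pseudocount of 4, 90 with TMM scaling, and 49 to 92 with 1 animal left out, the lowest without T31 animal 1, and 64 without T31 animal 15. The genes called lower in T31 were 0 to 2 against T37 (2 without T37 animal 12 or 47) and 0 to 1 against T42 and F23 with 1 animal left out, and no filter gave 1 against T37. The cause of these shifts was not tested. In no alternative did the median fold change of the birth-day genes turn negative for T31 against F23, T37 or T42, or for P0 against F28. It was -0.12 to 0.0024 for P0 against P3 and -0.09 to 0.06 against P7, on both sides of 0. Deviations of same-numbered P0, P3 and P7 pups from their group means had correlations of -0.143 to 0.146. The main fit did not treat the numbers as a pairing, but groups this small cannot exclude one. A fit with the replicate block gave 4 genes in place of 7 for P0 against P3 and 10 in place of 11 against P7.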
